A study of Mus musculus with 70 samples.

Results

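Cholesterol synthesis was followed through 8 of its enzymes, encoded by Hmgcs1, Idi1, Fdps, Fdft1, Sqle, Lss, Cyp51 and Dhcr7. The genes were taken by name from the authors' table of read counts per gene, once its Ensembl identifiers had been matched to symbols. All 8 were found among the 50789 genes of the table. All 8 act in synthesis, and none in uptake, so receptors and transport genes were read from a separate list. The gene Cic encodes Capicua, a DNA-binding repressor of transcription with isoforms that differ in length, short (CIC-S) and long (CIC-L). RNA selected for poly(A) tails was sequenced from mice labelled Cic-S-KO, which lack the short isoform, from mice labelled Cic-L-KO, which lack the long isoform, and from WT mice, a pool of littermate controls. The lungs came from pups at postnatal day 6 and both brain regions, cortex and cerebellum, from mice 12 weeks old. Each of the 9 groups of tissue and genotype held 8 samples, except Cic-S-KO cortex and Cic-S-KO cerebellum with 7 each, for 70 samples in all. The labels do not say from which of the lines a WT sample came, how the alleles were made, or the strain or sex of the mice, so neither knockout could be set against WT littermates of its own line alone. All lung samples were labelled batch 1 and all brain samples batch 2. Tissue, age and batch therefore cannot be told apart between lung and brain, and those levels are described without a test.

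Cells build cholesterol from acetyl-CoA through mevalonate, isoprenoid units, squalene and the sterol ring. Most genes of the pathway are switched on together by SREBP2, a membrane-bound transcription factor that SCAP escorts to the Golgi for cleavage when sterols run low and that INSIG proteins hold back when sterols are plentiful. Cholesterol in blood does not cross the blood-brain barrier, so the brain makes its own, for neuronal and glial membranes and above all for myelin, and neurons clear the excess through the hydroxylase CYP46A1. In the newborn lung, alveolar type 2 cells use cholesterol in surfactant.

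The 8 genes lie on 7 chromosomes of GRCm38, and their positions are those of GENCODE M21. Hmgcs1 (ENSMUSG00000093930.2), whose cytosolic enzyme condenses acetyl-CoA with acetoacetyl-CoA ahead of mevalonate, occupies chromosome 13, bases 119690379 to 119708260 (plus strand). Idi1 (ENSMUSG00000058258.14), the isomerase of the isoprenoid unit, also occupies chromosome 13, bases 8885501 to 8892451 (plus strand). Fdps (ENSMUSG00000059743.12), farnesyl diphosphate synthase, occupies chromosome 3, bases 89093588 to 89101959 (minus strand). Fdft1 (ENSMUSG00000021273.10), squalene synthase and the first step committed to sterols, occupies chromosome 14, bases 63145150 to 63179578 (minus strand). Sqle (ENSMUSG00000022351.14), which oxidises squalene, occupies chromosome 15, bases 59315077 to 59331192 (plus strand). Lss (ENSMUSG00000033105.12), which closes the ring to give lanosterol, occupies chromosome 10, bases 76531588 to 76557138 (plus strand). Cyp51 (ENSMUSG00000001467.5), the lanosterol demethylase, occupies chromosome 5, bases 4081145 to 4104746 (minus strand). Dhcr7 (ENSMUSG00000058454.15), the reductase that gives cholesterol from its direct precursor, occupies chromosome 7, bases 143823145 to 143848410 (plus strand). Several share exon sequence with another annotated gene, and whether counting used strand is not given in the sources used here. The exons of Gm43738, a protein-coding gene on the same strand, hold 85.9% of the 1308 coding bases of Fdps, and Gm43738 itself was counted at 0 to 6 reads a sample. Fdps was listed at 3 to 118 reads a sample, and its values are uncertain, since reads that fit both genes may have been left out; this was not tested. Of the 1560 coding bases of Hmgcs1, 35.1% lie opposite exons of the antisense gene Gm48342 (0 to 15 reads a sample). Fdft1 shares 18.3% of its exon bases, none of them coding, with Ctsb on the other strand (8333 to 22968 reads a sample). The shared parts of the exons of Idi1 (9.2%), Cyp51 (3.8%) and Lss (3.5%) were smaller.

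Because the pathway is known for its shared control, the promoters were read for known binding motifs. RefSeq start-site windows (GRCm38.p6, 250 bases before to 50 bases after a start) were matched for 5 of the 8 genes: Hmgcs1, Idi1, Lss, Cyp51 and Dhcr7. Sqle, Fdps and Fdft1 were not matched. Motifs of known letters were searched on both strands: the SREBP element TCACNCCAC, the CCAAT box of the factor NF-Y, and the Capicua octamers TGAATGAA and TGAATGGA. The SREBP element was found in Hmgcs1 alone among the 5 genes, as TCACCCCAC at position -137, with the start site counted as 0; 1.24% of the 32851 windows of all genes held it. A CCAAT box was found in at least 1 window of each of the 5 genes, and in 37.41% of all windows. Neither octamer was found in the 7 windows of these genes, against 1.30% and 1.21% of all windows. Matches are letters in a window and not tested sites. Shown are the windows of Hmgcs1 and Dhcr7, which moved in opposite directions in the cortex, and of Idi1 and Cyp51, the pair that varied most closely together there. They run 5′ to 3′ on the strand of the gene, and capitals mark the SREBP element and the CCAAT boxes, which read ATTGG on the opposite strand.
Hmgcs1: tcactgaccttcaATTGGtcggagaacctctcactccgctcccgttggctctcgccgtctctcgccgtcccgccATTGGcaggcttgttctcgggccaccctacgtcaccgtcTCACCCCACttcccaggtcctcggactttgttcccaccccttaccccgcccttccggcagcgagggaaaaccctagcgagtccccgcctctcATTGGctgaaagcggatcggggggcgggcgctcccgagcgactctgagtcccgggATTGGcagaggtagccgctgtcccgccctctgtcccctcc
Idi1: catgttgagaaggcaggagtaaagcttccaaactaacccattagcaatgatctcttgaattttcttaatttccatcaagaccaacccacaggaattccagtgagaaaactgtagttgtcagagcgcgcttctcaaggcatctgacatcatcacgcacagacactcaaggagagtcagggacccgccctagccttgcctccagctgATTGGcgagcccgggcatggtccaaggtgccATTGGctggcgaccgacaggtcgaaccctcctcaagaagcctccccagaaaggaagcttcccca
Cyp51: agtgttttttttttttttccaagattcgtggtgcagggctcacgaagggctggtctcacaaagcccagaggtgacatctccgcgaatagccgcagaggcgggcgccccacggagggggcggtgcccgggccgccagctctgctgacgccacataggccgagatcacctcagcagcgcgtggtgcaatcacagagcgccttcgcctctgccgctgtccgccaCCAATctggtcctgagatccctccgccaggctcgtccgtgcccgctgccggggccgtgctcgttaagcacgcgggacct
Dhcr7: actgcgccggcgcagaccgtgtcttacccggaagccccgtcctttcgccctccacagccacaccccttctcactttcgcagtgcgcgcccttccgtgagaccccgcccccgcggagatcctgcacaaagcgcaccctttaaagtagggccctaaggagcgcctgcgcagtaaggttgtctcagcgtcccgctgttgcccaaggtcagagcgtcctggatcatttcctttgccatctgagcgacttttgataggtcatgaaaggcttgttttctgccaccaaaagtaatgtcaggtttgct
The Hmgcs1 window (chr13:119690101-119690400) holds 4 CCAAT boxes, at -237, -176, -45 and 10, and the SREBP element lies between the second and the third of them. The Idi1 window (chr13:8885356-8885655) holds 2, at -45 and -14, and the Cyp51 window (chr5:4104648-4104947) holds 1, at -29. The window nearest to the annotated start of Dhcr7 (chr7:143822917-143823216) holds none of the motifs searched, while another RefSeq start of Dhcr7 further into the gene (chr7:143829964-143830263) holds CCAAT boxes at -85 and -49. The window of Lss, not printed, holds 1, at -62.

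Total counts ranged from 17799000 to 35523000 reads a sample. The labelled tissues carried their markers: the summed level of 5 alveolar type 2 genes was 13860 to 19862 CPM (counts scaled to the TMM-adjusted size of the library) in lung samples and 79.1 to 110.3 in brain samples, that of 4 granule neuron genes was 2292 to 4324 CPM in cerebellum and 17.9 to 31.9 in cortex, and that of 3 measured cortical excitatory neuron genes was 1465 to 2234 CPM in cortex and 427.3 to 711.9 in cerebellum. One lung library stood apart: the same 3 neuron genes summed to 12.3 CPM in Cic-S-KO replicate 5 and to no more than 0.795 in any other lung sample, so lung results are also given without it. Counts per gene sum over both isoforms, so Cic itself cannot show which isoform a mouse lacks. Its mean level was 150.7 CPM in Cic-S-KO lung against 122.5 in WT lung, and, in cortex, 276.5 without the short and 325.2 without the long isoform against 179.3 in WT. It was not lower than WT by the test in any knockout group, and the genotypes are those of the labels. RNA of 4 Y-linked genes was present in 34 of the 70 samples, 4 in each group of 8 and 3 in each group of 7, so the genotypes were balanced for it.

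On the scale of CPM normalised over all 70 samples, 7 of the 8 genes had their highest group mean in a cortex group, and Fdps, the exception, had its highest in lung. With normalisation within each tissue or by library size alone, 6 of the 8 did. On the first scale Idi1 had means of 30.5 CPM in WT cortex and 20.8 in WT lung. Under the other scalings its ratio of WT cortex to WT lung was 1.16 and 1.14. The size of a difference between lung and brain thus depends in part on the scaling. Hmgcs1 was the most abundant per length in the WT cortex, at 66.5 CPM per kilobase of exon, ahead of Fdft1 (25.8), Cyp51 (24.2), Sqle (15.9), Idi1 (8.71), Dhcr7 (6.31), Lss (4.06) and Fdps (0.244). The length joins all annotated exons of a gene, 10787 bases for Lss, and may exceed that of the transcripts present. By CPM alone, Lss (43.8) lay above Dhcr7 (36.7) and Idi1 (30.5) in WT cortex. In the WT lung the order began with Hmgcs1 (24.5 CPM per kilobase) and Cyp51 (12.1) and ended again with Lss (1.89) and Fdps (0.472). In bulk tissue, fewer cells of a type and less RNA per cell cannot be told apart, in this and every later comparison.

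**Figure D1:**
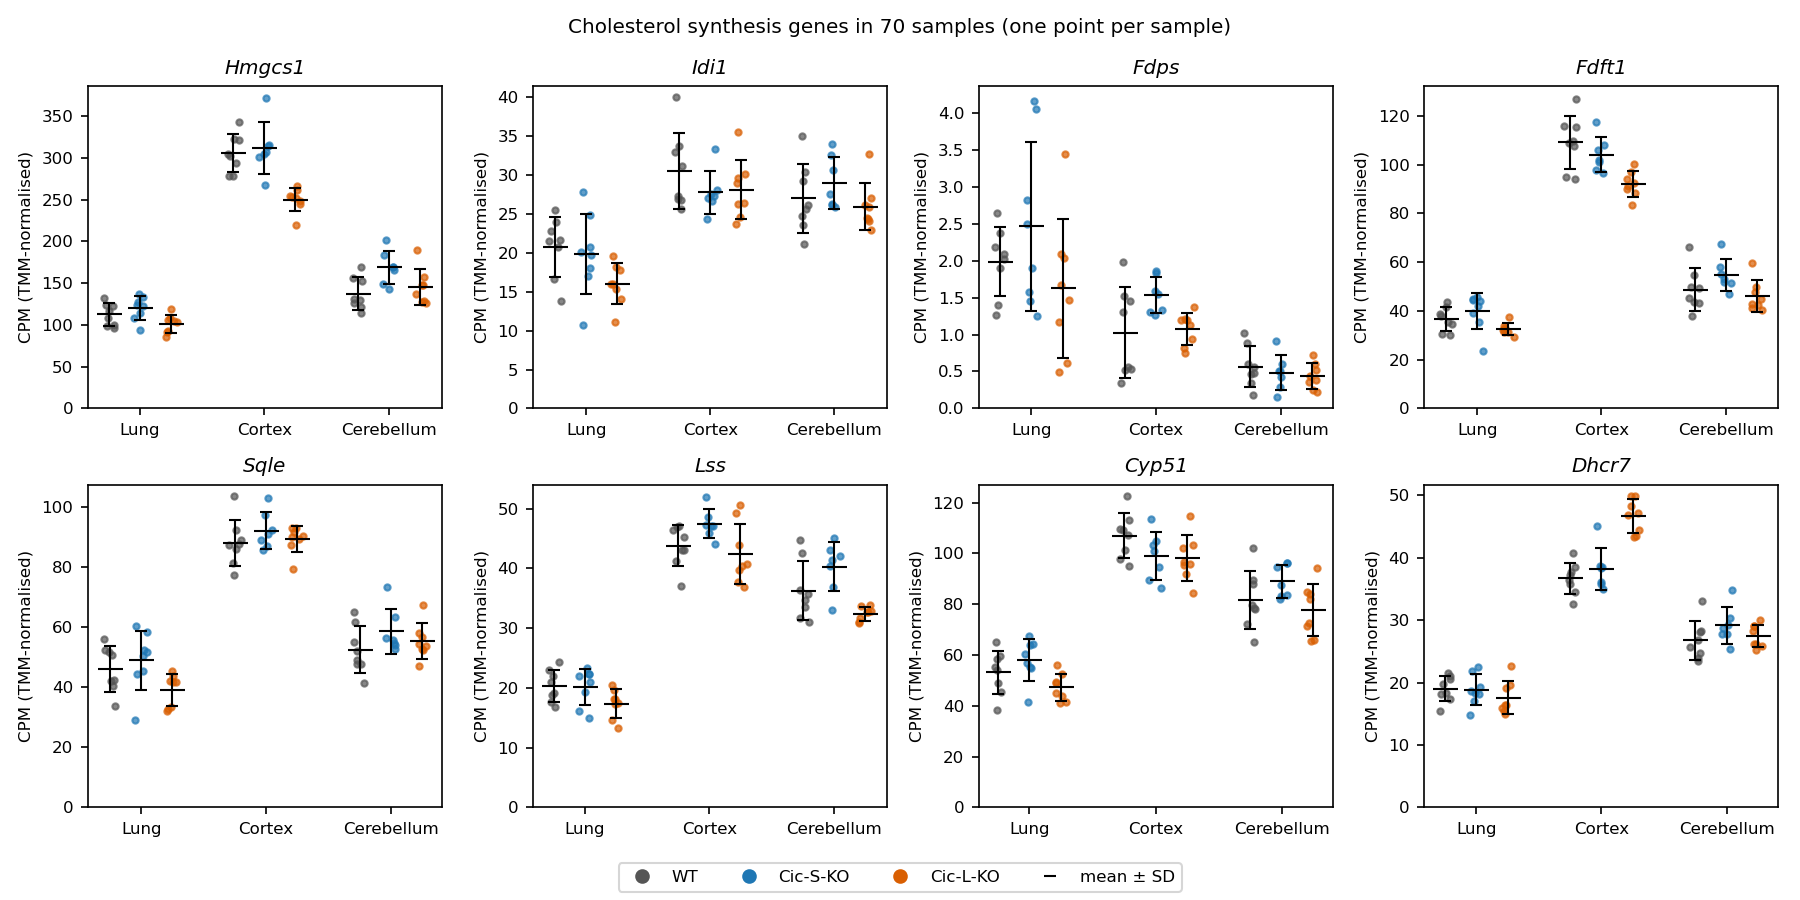
TMM-normalised CPM of each gene (vertical axis, linear from 0) in every sample, by tissue and genotype, with the group mean ± SD as bars. Hmgcs1 in Cic-L-KO cortex (220.0 to 266.6 CPM) lies below all WT cortex samples, Dhcr7 in Cic-L-KO cortex (43.3 to 49.9) lies above them, and Fdps stays at or under 4.16 CPM throughout.

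Expression in WT cortex and WT cerebellum could be tested, since both regions were taken at the same age and carry the same batch label. Of the 8 genes, 7 were higher in cortex and none was lower, in a contrast in which 35.4% of the 18032 genes tested were higher, 38.2% lower and 73.5% called in all (edgeR quasi-likelihood test on counts, Benjamini-Hochberg adjusted p under 0.05, as for every call given here). Among the 7, the fold ran from 1.20 for Lss to 2.23 for Fdft1. At the entry to the pathway, Hmgcs1 was at 277.9 to 343.5 CPM in WT cortex (median 303.1) and 114.2 to 169.7 in WT cerebellum (median 130.6). The regions did not overlap, and the log2 fold change was 1.14 (SE 0.074, adjusted p = 1.95e-18). In WT lung the same gene lay at 96.9 to 132.1 CPM (median 112.6), which overlaps the cerebellum. Fdft1, at the branch to sterols, was at 94.2 to 127.0 CPM in cortex (median 109.2), 37.7 to 66.1 in cerebellum (median 47.2) and 30.2 to 43.6 in lung (median 36.8). Its cortex samples lay above every cerebellum sample, with a log2 fold change of 1.16 (SE 0.078, adjusted p = 5.42e-18). Sqle did not overlap between the regions either, at 77.3 to 103.6 CPM in cortex (median 87.5) and 41.4 to 65.1 in cerebellum (median 50.6), a log2 fold change of 0.74 (SE 0.068, adjusted p = 1.23e-13). Among the 8 genes, those of the sterol ring differed less than Hmgcs1, Fdft1 and Sqle, and their samples overlapped between the regions. Cyp51 stood at 107.0 ± 8.87 CPM (SD, n = 8) in cortex and 81.7 ± 11.5 (n = 8) in cerebellum (log2 0.38, adjusted p = 9.35e-06), Dhcr7 at 36.7 ± 2.50 and 26.8 ± 3.13 (log2 0.45, adjusted p = 1.28e-09) and Lss at 43.8 ± 3.41 and 36.3 ± 4.91 (log2 0.26, adjusted p = 0.00033). Idi1 did not pass, at 25.6 to 40.0 CPM in cortex (median 29.2) and 21.2 to 35.0 in cerebellum (median 25.9). Its log2 fold change was 0.17 (SE 0.089, adjusted p = 0.0848). It passed under DESeq2 (log2 0.20, adjusted p = 0.0368), with RLE factors (0.20, adjusted p = 0.0417) and with GC trends removed (0.28, adjusted p = 0.00362). Fdps was higher in cortex by 0.84 (SE 0.30, adjusted p = 0.0102) at 0.351 to 1.99 CPM against 0.186 to 1.02. Of the 11 other synthesis enzymes tested, 9 were higher in cortex and Ebp was lower. Among them was Msmo1, a sterol oxidase (log2 0.97, adjusted p = 2.94e-14). Of 6 regulators tested, 2 were higher in cortex and 2 lower. Srebf2, which encodes SREBP2, was higher by 1.00 (adjusted p = 1.71e-32). Of 10 uptake and transport genes 2 were higher and 5 lower, and of 7 efflux and oxysterol genes 1 was higher and 4 lower. Of 10 fatty acid synthesis genes 4 were higher and 4 lower. Markers of most cell types differed between the regions as well: 4 of 4 astrocyte genes and 6 of 8 oligodendrocyte genes were lower in cortex and 1 of the 8 was higher, and 3 of 3 microglial and 3 of 3 endothelial genes were higher. Their part in the difference was not tested.

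Loss of the long isoform changed 3 of the 8 genes in the cortex, and not in 1 direction. Hmgcs1 and Fdft1 fell and Dhcr7 rose. Of the comparisons with WT this had the most calls: 43.2% of 16974 genes differed, 21.4% higher and 21.9% lower, so 3 of 8 is close to the share of all genes. Their fold changes had a median size of 0.10 on the log2 scale, and all genes tested one of 0.18. Hmgcs1 was at 220.0 to 266.6 CPM in Cic-L-KO cortex (median 252.3) and 277.9 to 343.5 in WT (median 303.1). All 8 Cic-L-KO samples lay below every WT sample, and the log2 fold change was -0.27 (SE 0.049, adjusted p = 5.73e-05), a level of 0.832 of WT. Fdft1 lay at 83.3 to 100.3 CPM (median 91.7) against 94.2 to 127.0 in WT (median 109.2), and 6 of 8 samples were below all of WT. It fell by 0.22 on the log2 scale (SE 0.049, adjusted p = 0.000526). Dhcr7, the last step of one arm of the pathway, went the other way. It was at 43.3 to 49.9 CPM in Cic-L-KO (median 47.0) and 32.5 to 40.7 in WT (median 36.8), with no overlap, and it rose by 0.37 (SE 0.049, adjusted p = 4.13e-07), or 1.29-fold. The other 5 did not pass: Sqle was at 0.04 (95% interval -0.05 to 0.13), Lss at -0.02 (-0.14 to 0.10), Cyp51 at -0.10 (adjusted p = 0.167), Idi1 at -0.10 (adjusted p = 0.387) and Fdps at 0.10 with an SE of 0.26.

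**Figure D2:**
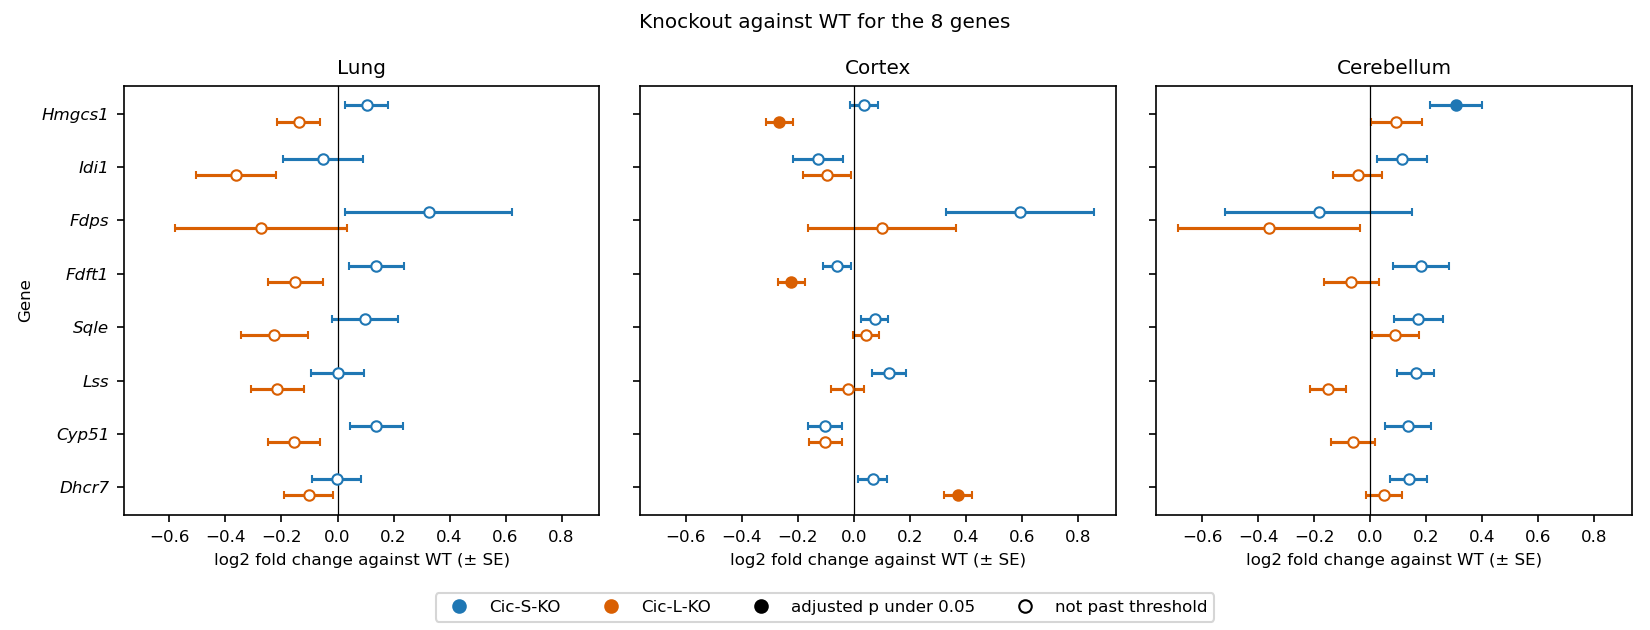
Log2 fold change against WT (horizontal axis, ± SE) of the 8 genes in each tissue for Cic-S-KO and Cic-L-KO, from the edgeR fits; filled points had an adjusted p under 0.05. In cortex only the Cic-L-KO points of Hmgcs1 (-0.27), Fdft1 (-0.22) and Dhcr7 (0.37) are filled, in cerebellum only Hmgcs1 in Cic-S-KO (0.31), and in lung none.

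The lists of other pathway genes are read against the same share of calls in Cic-L-KO cortex, 43.2% of all genes in nearly equal parts higher and lower. Calls among 4 of 10 uptake and transport genes and 3 of 7 efflux and oxysterol genes lie near that share. Of 11 other synthesis enzymes tested, 5 rose and 1 fell. Acat2, which makes the acetoacetyl-CoA that Hmgcs1 uses, fell from 44.7 ± 4.03 CPM (n = 8) in WT to 31.3 ± 1.70 (n = 8), with every Cic-L-KO sample below every WT sample (log2 -0.49, adjusted p = 4.21e-08). Pmvk, phosphomevalonate kinase, rose by 0.36 (adjusted p = 2.46e-07), Sc5d, the enzyme just ahead of Dhcr7, by 0.22 (adjusted p = 0.000122), Mvk by 0.17 (adjusted p = 0.00772), and Tm7sf2, a sterol reductase, by 0.22 (adjusted p = 0.0106). Of 6 regulators tested, 3 fell and 1 rose. Srebf2 fell from 351 ± 14.2 CPM to 302.7 ± 9.80 without overlap (log2 -0.19, adjusted p = 8.99e-06), the SREBP proteases Mbtps2 and Mbtps1 fell by 0.36 and 0.19 on the log2 scale, and Srebf1, whose product drives fatty acid genes, rose by 0.29 (adjusted p = 0.00134). Among 10 uptake and transport genes, 3 rose and 1 fell. Mylip, which encodes a ubiquitin ligase that acts on lipoprotein receptors, rose by 0.47 (adjusted p = 7.25e-08), the lipoprotein receptor gene Lrp8 rose by 0.53 (adjusted p = 1.98e-06), the lysosomal carrier Npc2 rose by 0.23, and the HDL receptor gene Scarb1 fell by 0.31 on the log2 scale. Of 7 efflux and oxysterol genes tested, Abcg4 rose by 0.19, while Nr1h2 fell by 0.20 and Cyp46a1, the neuronal cholesterol hydroxylase, by 0.32 on the log2 scale. Of 10 fatty acid synthesis genes 6 rose and 2 fell, led by the desaturase Scd1 (log2 0.65, adjusted p = 2.28e-09), with Fads1 at 0.32, Elovl6 at 0.38, Fads2 at 0.29 and Scd2 at 0.23. Cell type markers moved in the same comparison, and their part was not tested. Of 3 cortical neuron genes, Slc17a7 and Tbr1 fell, and the sum of the 3 was 1465 to 1736 CPM in Cic-L-KO against 1990 to 2209 in WT. Of 4 astrocyte genes 2 rose (summed range 1134 to 1458 CPM against 1176 to 1454), of 8 oligodendrocyte genes 1 fell (4907 to 6375 against 5082 to 7264), of 4 genes of newly formed oligodendrocytes 2 fell (175.1 to 227.4 against 209.4 to 268.6), of 3 microglial genes 2 rose (178.7 to 208.3 against 151.1 to 193.9) and of 3 endothelial genes Cldn5 rose (67.8 to 92.7 against 48.8 to 85.3). No gene of these lists was at 0 in either group.

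**Figure D3:**
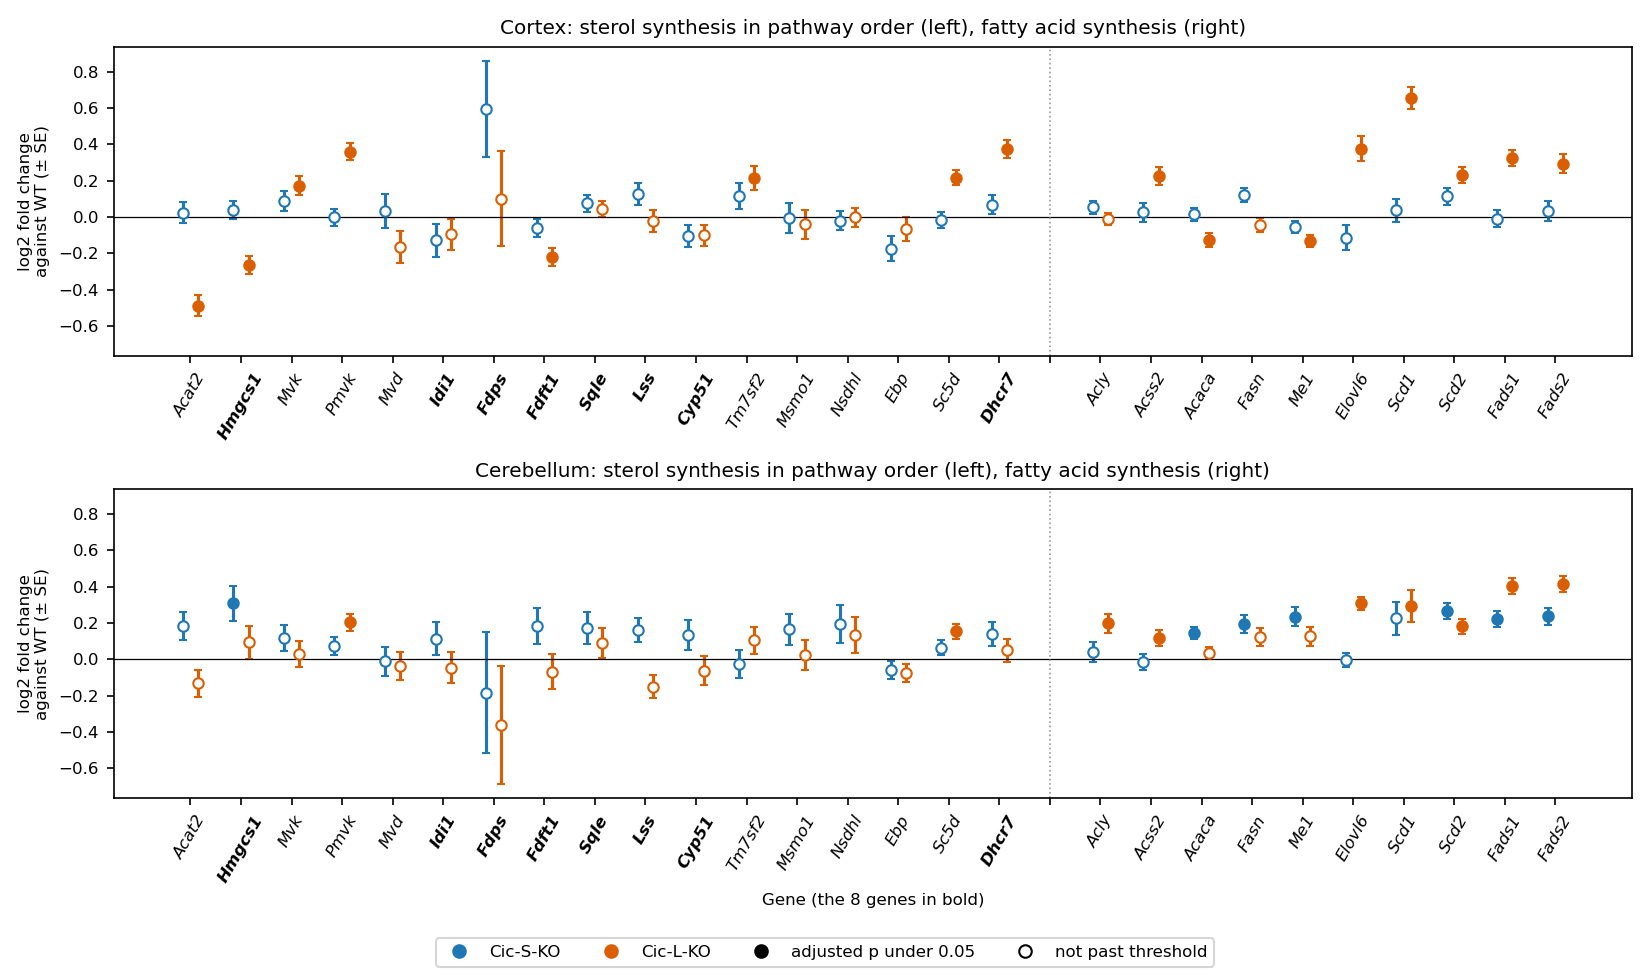
Log2 fold change against WT (vertical axis, ± SE) for sterol synthesis genes in pathway order (left of the dotted line; the 8 genes in bold) and 10 fatty acid genes (right), in cortex (top) and cerebellum (bottom); filled points are those past the same threshold. Among the Cic-L-KO points for cortex, Acat2 (-0.49) and Hmgcs1 (-0.27) lie below WT and Pmvk (0.36) and Dhcr7 (0.37) above it, while in cerebellum the filled points of the fatty acid genes all lie above 0.

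The cortex without the short isoform showed no call among the 8 genes. In Cic-S-KO cortex against WT, 0 of 8 passed (edgeR; 1, Fdps, had an unadjusted p under 0.05, and DESeq2 called 0), where 6.53% of 16974 genes did (2.83% higher and 3.7% lower). Hmgcs1 was at 267.5 to 371.8 CPM (median 307.2) in 7 samples, spanning the WT range, with a log2 fold change of 0.04 (95% interval -0.06 to 0.14). The other values lay between -0.13 for Idi1 and 0.13 for Lss, apart from 0.59 for Fdps (SE 0.26, adjusted p = 0.172). Of 6 regulators, 2 rose and 1 fell: Scap rose by 0.15 (adjusted p = 0.0167) and Srebf1 by 0.28 (adjusted p = 0.0227), and Mbtps2 fell by 0.17 on the log2 scale. The oligodendrocyte genes Mog and Mag rose with them, and the sum of 8 such genes was 5370 to 8301 CPM against 5082 to 7264 in WT; its part was not tested. Set directly against each other, the knockouts differed in 3 of the 8 genes (17.4% of genes were higher in Cic-S-KO and 16.5% lower, 33.9% in all). Hmgcs1 exceeded its Cic-L-KO level in Cic-S-KO by 0.30 (SE 0.050, adjusted p = 1.94e-05) with no overlap between the 7 and 8 samples, and Fdft1 was higher by 0.16 (SE 0.051, adjusted p = 0.0137). Dhcr7 was lower by 0.30 on the log2 scale (SE 0.051, adjusted p = 2.06e-05), at 35.0 to 45.1 CPM against 43.3 to 49.9, with 6 of 7 Cic-S-KO samples below all of Cic-L-KO. Lss lay just outside the threshold (0.15, adjusted p = 0.0654) and passed without the filter on low counts (adjusted p = 0.0394), with the Y-linked covariate (0.0446) and with GC trends removed (0.0262). Fdps (0.49, adjusted p = 0.146) passed when only these groups were fitted (adjusted p = 0.0327). The 8 oligodendrocyte genes all had higher fitted values in the Cic-S-KO cortex of this pair and 5 of them passed. Of 3 cortical neuron genes 2 were higher and 1 lower, and 2 of 4 genes of newly formed oligodendrocytes were higher. In the same pair 2 of 4 astrocyte, 2 of 3 microglial and 2 of 3 endothelial genes were lower. The part of these cell types was not tested.

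Loss of the long isoform changed none of the 8 genes in the cerebellum by the test, and its effect on Hmgcs1 and Dhcr7 differed from that in cortex. In Cic-L-KO cerebellum, 0 of 8 passed (edgeR; 1, Lss, had an unadjusted p under 0.05, and DESeq2 called 0), in a comparison in which 21.5% of 16643 genes did (10.9% higher and 10.6% lower). Hmgcs1 lay at 126.1 to 189.5 CPM (median 142.9) in Cic-L-KO and 114.2 to 169.7 in WT (median 130.6), a log2 fold change of 0.09 (95% interval -0.08 to 0.27). Dhcr7 lay at 25.3 to 30.0 CPM (median 27.3) against 23.5 to 33.1 (median 26.2), a log2 fold change of 0.05. The ranges overlapped for both genes, with 1 Cic-L-KO sample above all of WT for Hmgcs1. The difference between the regions was tested in a fit of all 46 brain samples. The Cic-L-KO effect on Hmgcs1 was lower in cortex than in cerebellum by 0.36 on the log2 scale (SE 0.10, adjusted p = 0.00969). That on Dhcr7 was higher in cortex by 0.32 (SE 0.081, adjusted p = 0.00255). In this contrast 11.5% of 18032 genes were called in each direction and 23% in all, so 2 of 8 is close to the share of all genes. For Fdft1 the difference was -0.16 (SE 0.11, adjusted p = 0.323). The same test for the Cic-S-KO effect called 0 of 8 (edgeR; 3 had an unadjusted p under 0.05 and DESeq2 called 0; 4.5% of genes were called, 2.01% higher and 2.5% lower).

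Loss of the short isoform raised 1 of the 8 genes in the cerebellum, where 4.34% of genes were higher, 3.89% lower and 8.23% called in all. Hmgcs1 was at 143.6 to 201.3 CPM (median 169.1) in 7 Cic-S-KO samples and 114.2 to 169.7 (median 130.6) in 8 WT samples. The ranges overlapped, with 2 samples above all of WT, and the log2 fold change was 0.31 (SE 0.094, adjusted p = 0.0443). Without the filter on low counts, which adds genes to the adjustment, it did not pass (adjusted p = 0.114). Of the other members, 6 had positive values from 0.11 for Idi1 to 0.18 for Fdft1 and did not pass, and Fdps was at -0.18 (SE 0.33). Lss was the 1 member in which the knockouts differed here by the test. It lay at 33.0 to 45.1 CPM (median 41.4) in Cic-S-KO, 30.8 to 33.9 (median 32.7) in Cic-L-KO and 31.0 to 44.7 (median 35.3) in WT. The Cic-S-KO level exceeded that of Cic-L-KO by 0.31 (SE 0.067, adjusted p = 0.00208), with 6 of 7 samples above all of Cic-L-KO, where 6.06% of genes were higher, 6.38% lower and 12.4% called in all. With the presence of Y-linked RNA as a covariate, 4 members passed in this contrast, the others being Hmgcs1, Fdft1 and Cyp51, and the same 4 passed without Cic-L-KO replicate 4, a library left out after seeing the data. Among the genes around the pathway, fatty acid synthesis moved in both knockouts: 6 of 10 rose in Cic-S-KO, led by Scd2 (log2 0.27, adjusted p = 0.000645), and 7 of 10 in Cic-L-KO, with the desaturases Fads2 at 0.41 (adjusted p = 5.01e-07) and Fads1 at 0.40 (adjusted p = 3.39e-07) and the elongase Elovl6 at 0.31. These comparisons share the WT samples. In Cic-L-KO cerebellum 21.5% of all genes were called against WT, 10.9% higher and 10.6% lower. Of 6 regulators, 2 rose in Cic-S-KO, Srebf2 by 0.14 and Srebf1 by 0.33. In Cic-L-KO 1 rose and 3 fell, with adjusted p between 0.0346 and 0.047. The proteases Mbtps1 and Mbtps2 fell by 0.13 and 0.15 on the log2 scale, Insig1, the sterol-sensing brake on SREBP2 and itself a target of it, fell by 0.26, and Scap rose by 0.11. Of 10 uptake and transport genes 1 rose in each knockout, Npc2 (0.24) in Cic-S-KO and Npc1 (0.14) in Cic-L-KO. Of 7 efflux and oxysterol genes tested, Cyp46a1 rose by 0.33 without the short isoform. Without the long isoform Apoe (0.18) and Abcg4 (0.13) rose, and Abca1 fell by 0.23 on the log2 scale. Pmvk (0.20) and Sc5d (0.15) rose in Cic-L-KO and were the 2 of 11 other synthesis enzymes called, near the share of all genes called there. In Cic-S-KO, 0 of the 11 passed (edgeR; 2 at an unadjusted p under 0.05, and DESeq2 called 1). Of 4 granule neuron genes, 4 fell in Cic-S-KO, with a summed level of 2292 to 3559 CPM against 3560 to 4324 in WT, and 1 fell in Cic-L-KO (2685 to 3765). Of 8 oligodendrocyte genes Mog rose in Cic-S-KO (summed level 7389 to 11826 CPM against 6101 to 10597), as did 2 of 4 astrocyte genes (2425 to 2956 against 2280 to 2900), and 3 of 3 endothelial genes rose in Cic-L-KO (71.4 to 85.2 against 41.0 to 66.4), where 1 of 4 astrocyte genes rose and 2 fell. The part of these cell types in the values of Hmgcs1, Lss and the fatty acid genes was not tested.

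In the lung at postnatal day 6 neither knockout differed from WT in any of the 8 genes by the test, and the knockouts differed from each other in 2, neither of which passed without Cic-S-KO replicate 5. Against WT, 0 of 8 passed in Cic-S-KO (edgeR; 0 at an unadjusted p under 0.05, and DESeq2 called 0), where 15.7% of 16695 genes did (9.99% higher and 5.73% lower). Also 0 of 8 passed in Cic-L-KO (edgeR; 2, Idi1 and Lss, at an unadjusted p under 0.05, and DESeq2 called 0), where 4.89% did (2.62% higher and 2.28% lower). The fitted values of all 8 genes were below WT in Cic-L-KO, from -0.10 for Dhcr7 to -0.36 for Idi1, with a median of -0.18 against -0.000935 over all genes tested. In Cic-S-KO the median was 0.10. Between the knockouts the 8 values were all higher in Cic-S-KO, with a median of 0.29, and 7.31% of all genes were called higher, 4.85% lower and 12.2% in all. Cyp51 was at 41.4 to 67.4 CPM (median 58.6) in Cic-S-KO, 41.1 to 56.2 (median 47.1) in Cic-L-KO and 38.4 to 65.3 (median 54.7) in WT. The 3 ranges overlapped, and Cyp51 in Cic-S-KO exceeded its Cic-L-KO level by 0.29 (SE 0.094, adjusted p = 0.0393). Hmgcs1 was at 93.5 to 136.9 CPM (median 123.0) in Cic-S-KO and 85.2 to 118.8 (median 104.2) in Cic-L-KO, higher by 0.24 (SE 0.077, adjusted p = 0.0388). Fdft1 was just outside the threshold at 0.29 (SE 0.099, adjusted p = 0.0547). With DESeq2, 4 of the 8 genes passed between the knockouts, Fdft1 (adjusted p = 0.0394) and Sqle (0.0478) in addition. Cic-S-KO replicate 4 had the lowest level of its group in 6 of the 8 genes, for example 23.6 CPM of Fdft1 where the group median was 43.0. Without this library, left out after seeing the data, 5 of the 8 genes passed between the knockouts (Idi1 0.40, Fdft1 0.37 and Sqle 0.40 in addition) and 1, Fdft1, passed against WT (0.22, adjusted p = 0.0472). Without Cic-S-KO replicate 5, the library with neuron RNA, also left out after seeing the data, 0 of the 8 passed between the knockouts (edgeR; 5 at an unadjusted p under 0.05), with Cyp51 at 0.27 (adjusted p = 0.0843) and Hmgcs1 at 0.23 (adjusted p = 0.0698). Without the filter on low counts neither Cyp51 (adjusted p = 0.101) nor Hmgcs1 (0.0848) passed. Of 11 other synthesis enzymes, 4 were higher without the short than without the long isoform: Mvd (0.33), Msmo1 (0.33), Ebp (0.21) and Sc5d (0.25). The first 3 also passed without replicate 5, and Sc5d did not (0.24, adjusted p = 0.0602). Against WT, Mvd (0.27) and Ebp (0.22) rose in Cic-S-KO, and without replicate 5 Ebp did (adjusted p = 0.0191) and Mvd did not (adjusted p = 0.0696). The largest values around the pathway lay outside synthesis, where Ch25h, an oxysterol-making hydroxylase of immune cells, rose by 1.88 in Cic-S-KO against WT (adjusted p = 0.000354) and Apoe, the lipoprotein carrier, by 1.00 (adjusted p = 0.000362). Without replicate 5 these were 1.86 and 1.03, and both passed. All of 3 macrophage and microglia genes (Csf1r, C1qa and Aif1) rose there as well, with a summed level of 123.8 to 200.2 CPM in Cic-S-KO, 109.4 to 142.6 in Cic-L-KO and 85.4 to 122.1 in WT. The summed alveolar type 2 genes were at 14704 to 19862 CPM in Cic-S-KO, 13981 to 16687 in Cic-L-KO and 13860 to 17074 in WT. All of 3 alveolar type 1 genes rose in Cic-L-KO against WT (summed level 1713 to 2014 CPM against 1403 to 1702). The part of these cell types was not tested.

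Within groups, the genes rose and fell together from sample to sample. For each tissue, log2 CPM was taken as the deviation from the mean of the sample's group, and Pearson's r and Spearman's rho were computed for all 28 pairs of genes, 84 relations in all, with 100000 permutations within groups and Benjamini-Hochberg adjustment over the 84. Fdps was apart from the rest, and it was counted at 3 to 118 reads a sample against 235 or more for the other genes. The part of low counts in the low r of Fdps was not tested. Of the 21 pairs without it, 18 passed in lung (median r 0.724, 24 samples), 15 in cortex (median 0.624, 23 samples) and 15 in cerebellum (median 0.711, 23 samples), and by Spearman's rho 14, 13 and 14 passed. Over all pairs of genes tested, the medians for lung, cortex and cerebellum were 0.018, 0.0075 and 0.002. Of the 7 pairs with Fdps, 5 passed in lung and 0 in each brain region (permutation test; by Spearman's rho 5, 0 and 0). The closest pairs were Fdft1 and Sqle, the consecutive steps around squalene, in cerebellum (r = 0.904, rho = 0.788, adjusted permutation p = 0.00014 and 0.000504), Sqle and Cyp51 in lung (r = 0.877, rho = 0.798, adjusted p = 0.00014 and 0.00042) and Idi1 and Cyp51 in cortex (r = 0.862, rho = 0.831, adjusted p = 0.00014 and 0.00028). Without the 2 samples farthest from the median of the first gene these were 0.862, 0.773 and 0.797. The unadjusted p of 1e-05 behind each r is the smallest that 100000 permutations can give. Apart from Fdps, the more independent members were Lss in cortex, and Lss and Dhcr7 in cerebellum. Of the 6 cortex pairs that did not pass, 5 held Lss, the lowest being Fdft1 with Lss (r = 0.249, adjusted p = 0.283), and the other was Hmgcs1 with Dhcr7 (r = 0.506, rho = 0.386, adjusted p = 0.0506 and 0.118). In cerebellum, each of the 6 pairs that did not pass held Lss or Dhcr7. Hmgcs1 and Dhcr7, which went opposite ways between Cic-L-KO and WT cortex, thus had a positive r within the groups of that tissue. Leaving out the 2 farthest samples lowered the median r of the 21 pairs to 0.579 in lung, 0.522 in cortex and 0.560 in cerebellum. Deviations taken within group and presence of Y-linked RNA gave medians of 0.684, 0.623 and 0.677. The samples share their depth and normalisation across genes, as do all gene pairs.

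**Figure D4:**
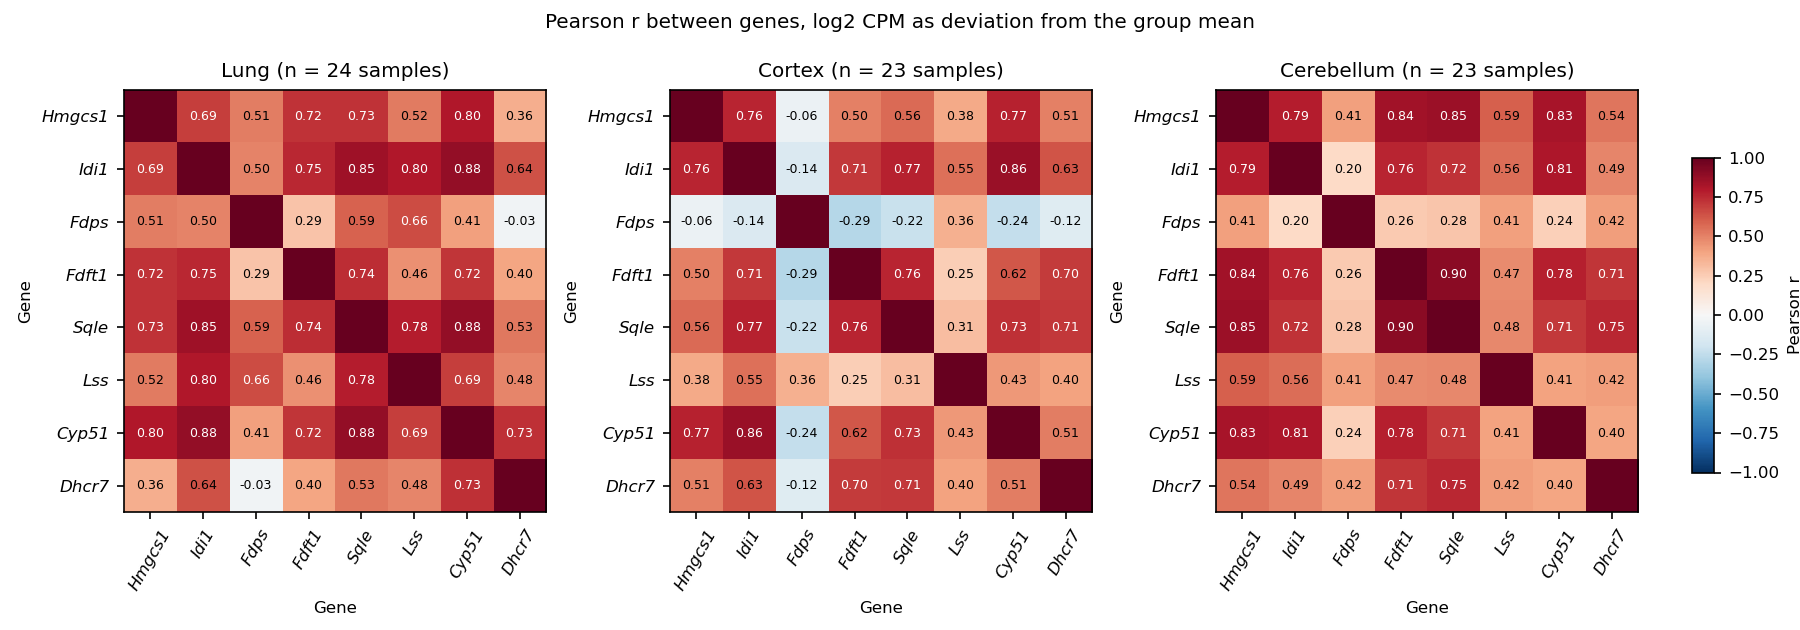
Pearson r between the 8 genes in lung (24 samples), cortex (23) and cerebellum (23), from log2 CPM as deviations from the group mean; genes are on both axes and colour runs from -1 (blue) to 1 (red). Pairs without Fdps lie between 0.249 and 0.904, while pairs with Fdps run from -0.287 in cortex to 0.656 in lung.

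The same likeness was then sought among all other genes. The 8 genes were each scaled to their tissue mean and spread and averaged, and every other gene tested in all 3 tissues (14306 genes in all) was correlated with that average over the 70 samples. The median r was 0.035. Among the 10 genes most like the average were Msmo1 (r = 0.88), Insig1 (0.74), Acat2 (0.71), Mvd (0.68), Cyb5b (0.67), Bcap29 (0.64), Tkt (0.64) and Fabp5 (0.63). Of the 10, 6 were on the lists of the pathway, among them Msmo1, whose enzyme acts after Cyp51, Insig1, Acat2 and Mvd, which makes the isoprenoid unit. With deviations from group means in place of tissue means 7 of the 10 were shared, and without Fdps in the average 9 were. The r describes these samples, which include genotype differences and share their library depth. Each of the 8 genes was also set against the average of the other 7 in the same way. Idi1 (r = 0.82), Sqle (0.82) and Cyp51 (0.80) followed it most closely, and Dhcr7 (0.42) and Fdps (0.30) least.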

How the data were processed

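The authors deposited 1 table of read counts per gene, in whole numbers, for 70 samples. Per the labels' protocols, total RNA came from flash-frozen tissue and libraries were selected for poly(A). The submitters' processing notes name GRCm38.p6 and STAR 2.7. The counting program, its annotation and its use of strand are not given in the sources used here. Identifiers were matched to GENCODE M21 without their version (50725 of 50789; 64 were not matched).

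Counts were tested with edgeR 4.0.16 in R 4.3.3 (filterByExpr, TMM, robust quasi-likelihood fits, Benjamini-Hochberg adjustment over all genes tested, threshold 0.05), with 1 fit of 3 genotypes for each tissue and 1 of all 46 brain samples for the comparisons between regions. CPM values were computed here from the deposited counts with TMM factors over all 70 samples, and log2 CPM used a prior count of 2. Intervals of 95% are the fold change ± 1.96 SE. Totals of 17799000 to 35523000 counts a sample put the 7 genes other than Fdps at 235 or more reads in every sample. The programs were run on simulated counts for Cic-L-KO against WT in lung and cortex and for the Cic-L-KO difference between brain regions. Those counts held no effect of replicate number or GC content, and the outcome is not reported here. Alternatives were DESeq2 1.42.0, RLE factors, no filter on low counts, a mean of at least 50 counts, a fit without robust estimation, only the groups compared, presence of Y-linked RNA (summed CPM above 1) as a covariate, removal of trends in 20 bins of GC content, the replicate number as a block and 5 left-out libraries.

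The 8 genes and the pathway and marker lists were chosen with earlier results of these data known. All 8 genes were named in each comparison; of other lists up to 5 genes past the threshold with the smallest p were named, and some genes counted in the lists are not reported here by name. Of 50 listed pathway genes, 5 were not analysed here. The labels do not say that samples of a group came from separate mice, so p-values measure the spread between these samples. Nor do they say whether cortex and cerebellum samples came from the same mice, and the main fits took all samples as independent. The comparisons of each knockout with WT share the WT samples.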

Additional observations from a re-analysis of the deposited data

Results flagged for a closer look

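In 72 sets of 1 gene in 1 group, 5 samples stood apart from the rest of their group by Dixon's test, where chance gives about 3.6. Idi1 was highest in Cic-S-KO cortex replicate 1 (33.4 CPM) and in Cic-L-KO cerebellum replicate 4 (32.7 CPM). Dhcr7 was highest in Cic-S-KO cortex replicate 1 too (45.1 CPM). Sqle was lowest in Cic-L-KO cortex replicate 3 (79.5 CPM), and Fdft1 was lowest in Cic-S-KO lung replicate 4 (23.6 CPM).

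The effect of long isoform loss differed between brain regions for 2 of the 8 genes, by the test of the difference itself (edgeR, 46 samples). In this contrast 23% of 18032 genes were called, so 2 of 8 is close to the share of all genes. For Hmgcs1 the cortex effect minus the cerebellum effect was -0.36 on the log2 scale (adjusted p = 0.00969), and for Dhcr7 it was 0.32 (adjusted p = 0.00255).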

How the results depend on the processing

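Of 1236 values of single members under other settings, 1177 kept their direction and their side of the threshold, 31 newly passed, 5 no longer passed and 23 changed sign. The changes of Hmgcs1, Fdft1 and Dhcr7 in Cic-L-KO cortex passed under all 13 settings run for them, and the regional differences of Hmgcs1 and Dhcr7 under all 14. The mean of at least 50 counts gave no value for Fdps in the brain. The replicate numbers were not taken to pair the samples, which would have needed every correlation between samples of the same number to be over 0.1. Between cortex and cerebellum 10 of 23 were (mean 0.087), within lung 16 of 24 (mean 0.146), within cortex 8 of 22 (mean 0.0775) and within cerebellum 9 of 22 (mean 0.022). Between cortex and cerebellum 10 of 23 correlated best with their own number, within lung 12 of 24, within cortex 5 of 22 and within cerebellum 2 of 22. The library numbers of Cic-S-KO cortex and Cic-S-KO cerebellum skip the same number. Each sample was set against the 7 or 8 samples of the other group, and the share of best matches expected by chance was not computed. The rule cannot show that samples of the same number came from separate mice. The main tests took all samples as independent, and the block was run as an alternative.

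With the replicate block, by title or by library number, Cic-L-KO lung had 1285 genes called against WT (817 without) and 1 member, Idi1 (-0.37, adjusted p = 0.0273), and 4 members passed between the lung knockouts; with GC trends also removed these were 0 and 3. Lss between the cortex knockouts passed with the block by library number (adjusted p = 0.0185) and with block and GC removal (0.0416), and not with the block by title (0.0913). Idi1 between WT cortex and WT cerebellum passed with either block (adjusted p = 0.0488) and with block and GC removal (0.00128). The replicate block gave 627 genes in Cic-S-KO cortex (1108 without) and 591 in Cic-S-KO cerebellum (1370 without); with GC trends also removed it gave 253 and 628. Cic-S-KO cortex had 732 genes without the low-count filter, 654 with only the groups compared and 449 with GC trends removed. Without the filter the Cic-S-KO difference between regions had 446 genes (812 with it), and 0 members passed between the lung knockouts or in Cic-S-KO cerebellum (edgeR). DESeq2 called 4 members between the lung knockouts. Without lung Cic-S-KO replicate 4 it was 5, and 1 against WT, and without replicate 5 it was 0 (edgeR) and 0. Between the cerebellum knockouts 4 members passed with the Y-linked covariate and 4 without Cic-L-KO replicate 4.

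The sign changes were in values near 0. Lss in Cic-S-KO lung (0.0001) became -0.0077 with DESeq2 and with RLE factors, -0.013 without the filter, -0.0041 with only the groups compared, -0.0081 with the Y-linked covariate, -0.015 with GC trends removed, -0.0088 with either replicate block and -0.024 with block and GC removal. Cyp51 between the cortex knockouts (-0.00091) became 0.0031 with DESeq2, 0.0032 with RLE factors, 0.010 without the filter, 0.0030 with the Y-linked covariate, 0.0017 with GC trends removed and 0.0098 with the block by library number. Idi1 in Cic-L-KO cerebellum became 0.014 with GC trends removed and 0.022 with the block as well. Leaving out replicate 4 or 5 of Cic-S-KO lung gave -0.099 to 0.036 for Idi1, -0.033 to 0.035 for Dhcr7 and -0.017 to 0.037 for Lss. Leaving out 1 brain library gave -0.0061 to 0.0371 for Hmgcs1 in Cic-S-KO cortex, and -0.051 to 0.0041 for Idi1 and -0.041 to 0.0043 for Cyp51 in the Cic-L-KO regional difference. The cause of these changes was not tested. At 3 to 118 reads, Fdps allowed only large changes to be seen.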
